A study of Mus musculus with 2 samples.

Results

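Il1a, Il1b, Il1rn, Il1r1, Il1r2, Il6, Il6ra, Il6st, Il18 and Tnf are the 10 genes described here, out of 20659 named genes on the array. They were taken by name, with every probe whose RefSeq accession belongs to one of them, and each of the 10 genes had 1 probe. They were selected on their scaled signal in this same contrast, with earlier results of these data known, so their differences are a description and carry no test. Expression was measured in red pulp macrophages of mouse spleen, the resident phagocytes that remove aged red blood cells. One group was wild-type (WT) mice and the other mice lacking SIRPα (SIRPα-KO), the receptor through which CD47 on other cells restrains phagocytes. For each genotype, spleens of 5 mice were digested with collagenase D and DNase I, red blood cells were lysed, F4/80-positive cells with low CD11b were sorted, and the cells were mixed before RNA was extracted. RNA of both groups was depleted of globin transcripts, and 1 array of 1 colour was hybridised per genotype. The sources used here do not give the strain, age or sex of the mice, how the SIRPα allele was made, or whether the mice or cells were stimulated.

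IL-1α and IL-1β are the agonist ligands of the IL-1 receptor IL1R1. The antagonist IL-1RN occupies that receptor without signalling, and the decoy receptor IL1R2 binds ligand without passing on a signal. IL-18 is a relative of IL-1β, and both are cut to their active form by caspase-1 in the inflammasome. IL-6 binds IL6RA and then the shared signalling chain gp130, which Il6st encodes and which activates JAK kinases and STAT3. TNF acts through its own receptors, and in macrophages the genes of IL-1β, IL-6 and TNF are classical targets of NF-κB after microbial stimulation.

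The windows upstream of Il6, Il1b and Tnf are shown because Il6 and Il1b differed between the arrays by more than 2-fold and Tnf, also a classical NF-κB target, did not differ by more than its error. Each is the 250 bases before the annotated start, read 5′ to 3′ on the strand of the gene, from RefSeq on build GRCm38.p6, whose table held all 10 genes. Capitals mark matches on either strand to 3 motifs, GGGNNNTTC (NF-κB type), TTNNGNAA (C/EBP type) and TATAAA, the core of the box of that name. The letters were chosen after these windows had been read, from a longer set with other NF-κB and C/EBP forms and letters for AP-1, CREB, PU.1, IRF and ETS factors. The NF-κB-type letters are 1 base shorter than the form first chosen, so they match more windows, and a looser form also matched in the Tnf window. AP-1-type letters (6.75% of all windows) and CREB-type letters (6.47%) also matched in the Il6 window and PU.1-type letters (23.3%) in the Tnf window. They are not marked. Another C/EBP form (9.56%) matched in the Il6 window and in neither the Il1b nor the Tnf window. Which window holds which motif thus depends on the letters chosen.
Il6 (chr5:30012864-30013113, plus strand): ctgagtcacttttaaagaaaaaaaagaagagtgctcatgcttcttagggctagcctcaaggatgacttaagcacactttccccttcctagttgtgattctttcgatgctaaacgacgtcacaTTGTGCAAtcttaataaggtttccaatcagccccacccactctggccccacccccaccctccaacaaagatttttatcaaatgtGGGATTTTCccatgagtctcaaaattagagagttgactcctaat
Il1b (chr2:129371140-129371389, minus strand): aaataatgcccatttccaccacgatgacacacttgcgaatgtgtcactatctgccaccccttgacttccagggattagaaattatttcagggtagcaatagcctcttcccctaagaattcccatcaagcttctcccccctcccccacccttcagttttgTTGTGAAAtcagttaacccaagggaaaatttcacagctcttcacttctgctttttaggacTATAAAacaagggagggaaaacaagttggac
Tnf (chr17:35202008-35202257, minus strand): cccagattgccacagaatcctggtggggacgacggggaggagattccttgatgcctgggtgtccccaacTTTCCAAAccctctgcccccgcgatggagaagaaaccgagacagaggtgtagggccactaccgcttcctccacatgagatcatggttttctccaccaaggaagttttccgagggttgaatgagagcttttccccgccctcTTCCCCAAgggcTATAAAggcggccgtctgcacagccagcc
The Il6 window held GGGATTTTC, whose first base lies 44 bases before the start, and TTGTGCAA at 128 bases. The Il1b window held TTGTGAAA at 91 bases and TATAAA at 31 bases. The Tnf window held TATAAA at 29 bases and C/EBP-type matches on the opposite strand, TTTCCAAA at 181 bases and TTCCCCAA at 41 bases. No motif overlapped another in these windows. Of 32851 upstream windows of this length in the table, 11.8% held the NF-κB-type letters, 36.8% the C/EBP-type letters and 12.4% TATAAA. A match describes letters in the window and shows no binding in these cells.

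The 75th percentile of the signal was 100.1 for WT and 89.0 for the other array, and each signal was divided by it before the arrays were compared. The scanner software called 71.5% of the 39386 probes well above background for WT and 65.3% for the other array. Among genes, 15827 were measured, that is well above background on at least 1 array, and 14154 were so on both. The targeted gene, Sirpa, read 795 on the WT array and 1006 on the one labelled SIRPα-KO, a log2 difference of 0.51 ± 0.20. It did not bear out the label, and the sources used here do not say where its 1 probe lies relative to the deleted part, so every direction follows the label. Of 15 defining genes of red pulp macrophages, 13 were measured, 1 was at least 2-fold lower (Hpgd, -1.10) and 2 at least 2-fold higher (Cd5l, 1.46, and C1qc, 1.11), and the median was -0.21. For scale, a 2-fold difference was reached downwards by 5.41% of all measured genes and upwards by 3.12%. With only 13 genes, no shift of these markers is read from the counts. The summed scaled signal of the 13 genes was 153 for WT and 208 for the other array, and 84.9 and 91.0 without Adgre1. The brightest Adgre1 probe, which entered the sum, differed by 0.78, and its other measured probe went the other way, at -0.47. WT signals were 6830 for Adgre1 and 6601 for Csf1r, but 53.6 for Spic, the transcription factor that defines these cells, 82.1 for Vcam1, 50.4 for Treml4, 39.2 for Cd163 and 16.0 for C1qa. Mertk was not well above background and Cd68 had no named probe.

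A test across animals was not possible with 1 pool per genotype. A gene was counted as lower or higher where the arrays differed at least 2-fold, and every difference is the array labelled SIRPα-KO minus WT on the log2 scale. The ± after a difference is computed from the scanner software's signal errors on both arrays. It is the software's estimate for a spot, not a spread measured over repeat spots, and covers neither mice nor pools. It was 0.20 for Il1b, printed at 10 spots, and 0.21 for Il6, printed at 1 spot. Of the 10 probes, 6 were well above background on both arrays, and 4 were so on neither. Of the 6, 2 were at least 2-fold lower (Il6 and Il1b), 0 were at least 2-fold higher and 4 lay within 2-fold. Over all measured genes the same limit was passed downwards by 5.41% and upwards by 3.12%; since the genes were picked with this contrast known, nothing is read from their count. The median of the 6 differences was -0.15, against -0.08 over the 14154 genes measured on both arrays.

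**Figure D1:**
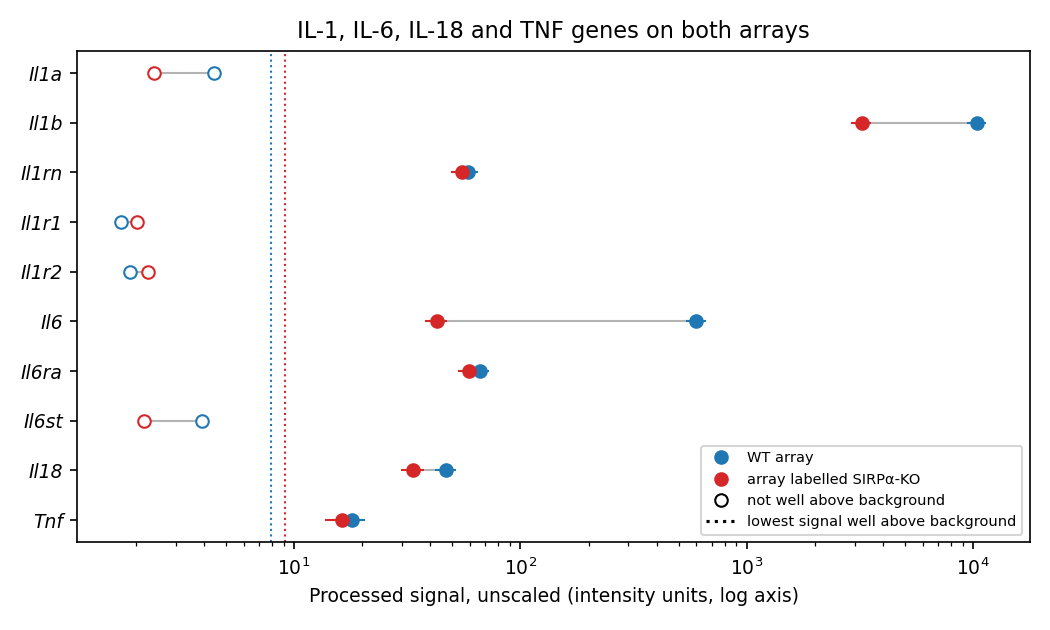
Processed signal of the 1 probe of each gene on the WT array (blue) and on the array labelled SIRPα-KO (red), on a log axis in intensity units before scaling; bars are the software's signal error and are drawn for filled points only. Il6 and Il1b lie apart between the arrays, Il1rn, Il6ra, Il18 and Tnf lie close together, and the 4 genes with open points lie below the dotted lines, the lowest signals well above background (7.92 and 9.09).

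Il1b, the ligand secreted as IL-1β, had the best-covered probe of the IL-1 genes, printed at 10 spots on each array. On the WT array its signal was lowest at 9217, had a median of 10579 and reached 11314 over 8 spots, with the other 2 left out as outliers by the software. On the array labelled SIRPα-KO the 10 spots ran from 2920 through a median of 3156 to 3597. Before scaling, all WT spots were thus brighter than all spots of the other array. The 234 probes with 10 spots that were well above background on both arrays had a median spot SD of 0.14 on each array. How many of them separate in this way was not counted. After scaling, Il1b was 2.87-fold lower (-1.52 ± 0.20), against spot SDs of 0.11 for WT and 0.10 for the array labelled SIRPα-KO. Both outlier spots lay inside the range of the 8 used, and with them kept the difference was -1.50. Spots of an array repeat the measurement of 1 RNA pool and are not replicates of a genotype.

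Tnf, the ligand TNF, had a probe with the same layout and showed the opposite picture. Its 10 WT spots ran from 13.8 through 18.8 to 21.6, and its 10 spots on the array labelled SIRPα-KO from 12.8 through 16.5 to 20.4. The ranges overlapped almost throughout. The scaled difference was 0.02 ± 0.31, smaller than the spot SDs of 0.21 and 0.23. All 10 spots were well above background on each array, but the signal stood close to the limit of 7.92 and 9.09. Of 399 probes printed at 10 spots, 234 were well above background on both arrays; 20 of these passed the 2-fold limit downwards and 5 upwards. Of the 234, 10 had a lower difference than Il1b and 147 a lower one than Tnf.

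**Figure D2:**
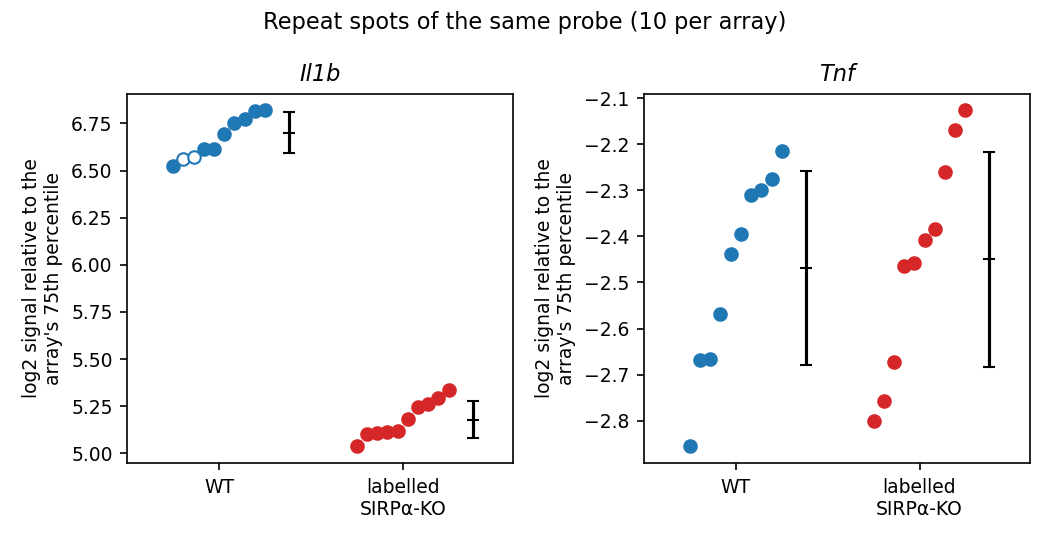
Each point is 1 spot of the Il1b or Tnf probe, as log2 signal relative to the 75th percentile of its array; open points are the 2 outlier spots left out, and the black bar is the mean ± SD of the spots used. The Il1b spots of the 2 arrays are separate, and the Tnf spots overlap.

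Il6, the ligand IL-6, had the lowest difference of the 6 measured genes. Its single spot read 598 for WT and 42.7 for the array labelled SIRPα-KO. Scaled, it was 12.5-fold lower (-3.64 ± 0.21), and only 4 of the 14154 genes measured on both arrays had a lower difference. The unprocessed pixels showed the same order: the spot's median pixel was 643.5 over a local background of 19 for WT and 81 over 17 for the array labelled SIRPα-KO. Both signals were well above background, so the fold is not a bound. With 1 spot and 1 probe, Il6 had no repeat of its measurement on either array.

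Of the IL-6 receptor chains, 1 was measured and stood close to 0. Il6ra, which encodes the ligand-binding chain, read 66.1 for WT and 59.2 for the other array. The scaled difference was 0.01 ± 0.21, well inside the signal error. Il6st, which encodes gp130, read 3.94 and 2.16 and was not well above background on either array, so no difference is given for it.

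Il1rn, the receptor antagonist, read 58.8 for WT and 55.0 for the array labelled SIRPα-KO, a difference of 0.07 ± 0.21. The agonist Il1b was thus lower, and the antagonist lay within its error of 0. Il1a, the other agonist, read 4.45 and 2.41 and was not well above background on either array. The receptors read 1.71 and 2.02 for Il1r1, which signals, and 1.89 and 2.26 for the decoy Il1r2, also not well above background. These values bound what could be seen, and they do not show that the transcripts were missing. Against the background limits of 7.92 for WT and 9.09 for the other array, the nearest measured gene was Tnf, at 18.1 and 16.3, and Il1a lay below both limits.

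Il18, the inflammasome-processed relative of Il1b, read 46.8 for WT and 33.7 for the other array. Its difference was -0.30 ± 0.23, beyond its signal error and far within 2-fold. Il18 and Il1b thus both lay below 0 by different amounts, and the difference between them has no test with 1 array per genotype. In bulk RNA, fewer cells of a kind and less RNA per cell cannot be told apart, and this holds for every difference given here.

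**Figure D3:**
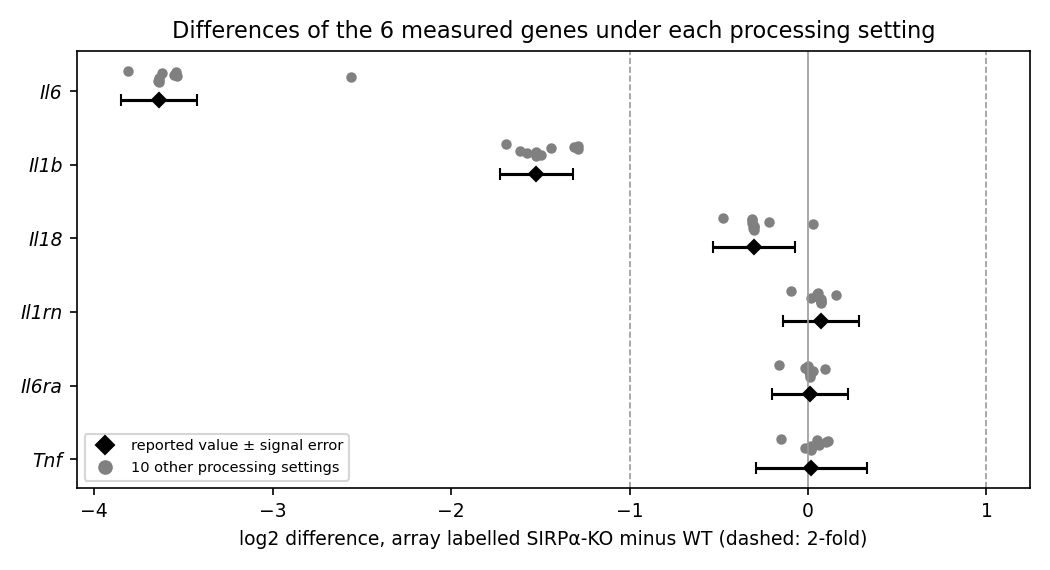
Log2 differences (array labelled SIRPα-KO minus WT) of the 6 measured genes, with the reported value and its signal error as a diamond and the 10 other processing settings as grey points; dashed lines mark 2-fold. Il6 and Il1b stay beyond 2-fold lower at every point and the other 4 genes stay within 2-fold.

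The scaling chosen did not decide which of the 10 genes were apart. Over the reported value and 10 other settings Il6 ranged from -3.81 to -2.56 and Il1b from -1.69 to -1.29. The probe-mean and no-filter settings could not change either value, and the spot-median setting could not change Il6, which had 1 spot. The small differences changed sign: Il1rn ranged from -0.10 to 0.16, Il6ra from -0.16 to 0.09 and Tnf from -0.15 to 0.11, each lowest without scaling. Il18 ranged from -0.47 without scaling to 0.03 after normexp background correction, so its direction is not settled. In the authors' own log2 values the difference was -3.54 for Il6 and -1.29 for Il1b. Their values for Il1a, Il1r1, Il1r2 and Il6st were one and the same on each array, 2.32 for WT and 2.34 for the array labelled SIRPα-KO.

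The relatives of Il1rn lie beside it on chromosome 2 and encode the IL-36 ligands, their antagonist and IL-38. Of these 5 genes (Il1f5, Il1f6, Il1f8, Il1f9 and Il1f10), 2 were measured. They were looked at after their values had been seen. Il1f6, which encodes IL-36α, read 117 for WT and 26.9 for the other array, and was 3.87-fold lower (-1.95), with a range of -2.12 to -1.02 over the settings. Il1f8, which encodes IL-36β, read 10.6 and 8.26 and was well above background on the WT array only.

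Il1b and Il1a are also chromosomal neighbours of the targeted gene. In the RefSeq order of GRCm38.p6, 1 protein-coding gene lies between Il1b and Sirpa and 2 lie between Il1a and Sirpa. The 10 protein-coding genes on each side of Sirpa were therefore listed, a window chosen after the data were seen. Of these 20 genes, 15 were measured. The 2-fold limit was passed downwards by 2, Il1b itself and Tmc2 (-1.02), and upwards by 0. Over all measured genes the shares were 5.41% and 3.12%. Apart from Il1b the differences ran from -1.02 to 0.58, and the median with Il1b was -0.20. The nearest measured genes on either side besides Il1b were Slc20a1 at 0.17 and Stk35 at -0.39. Whether the position of Il1b has a part in its difference was not tested.

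**Figure D4:**
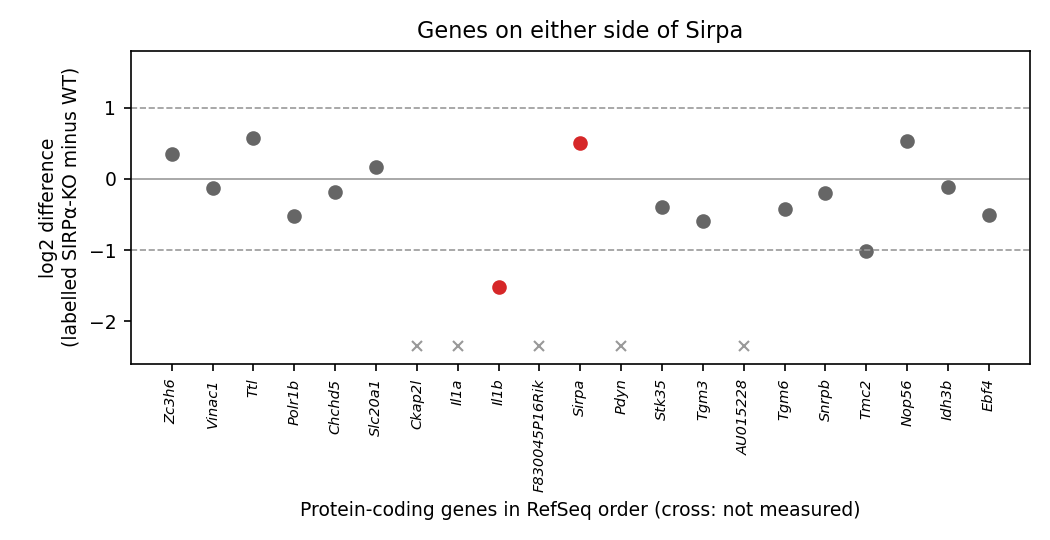
Log2 difference (array labelled SIRPα-KO minus WT) of the protein-coding genes around Sirpa in RefSeq order, evenly spaced; red marks Il1b and Sirpa, crosses mark genes not well above background on either array, and dashed lines mark 2-fold. Il1b at -1.52 has the lowest value and Sirpa itself stands at 0.51.

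Around these 10 genes, 4 lists held 84 further genes of their pathways, of which 68 were measured. The 2-fold limit was passed downwards by 1 of the 68 (1.47%) and upwards by 3 (4.41%), against 5.41% and 3.12% of all measured genes. Of the 68 differences 41 were negative. Among genes measured on both arrays the share was 56.3%. The sets differ, because the 68 also hold genes well above background on 1 array only. The median of the 68 was -0.14, against -0.08 over all measured genes. The lists were written with earlier results of these data known.

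In the IL-1 and IL-18 list, 19 of 25 genes were measured, with 1 lower and 2 higher (median -0.14). Traf6, the ubiquitin ligase that carries the signal of IL-1 receptors to NF-κB, read 3997 for WT and 993 for the other array, and was 3.57-fold lower (-1.84 ± 0.20). Tab2, an adaptor of the kinase TAK1 that acts after TRAF6, went the other way, from 125 to 294, or 2.64-fold higher (1.40 ± 0.21). Irak3, which restrains this pathway, was at least 2.27-fold higher, reading 15.9 for the array labelled SIRPα-KO with a WT spot not well above background; after normexp it stood at 0.23. The inflammasome genes stayed within 2-fold: Pycard, the adaptor ASC and the brightest of the list, differed by -0.22 ± 0.20 and turned to 0.016 in the authors' values and with quantile scaling, the sensor Nlrp3 by -0.32, the protease Casp1 by 0.31 and the pore-forming Gsdmd by -0.43. Irak2, the other bright member, differed by 0.23 ± 0.20 and turned to -0.65 with the mean of its 2 probes. The second of these was not well above background on both arrays, and every other setting kept Irak2 positive. The co-receptor Il1rap, the ligands Il33 and Il1f9 and both chains of the IL-18 receptor were not well above background on either array.

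In the IL-6 family list, 21 of 24 genes were measured, with 0 lower and 1 higher (median -0.13). Lif, a cytokine that also signals through gp130, was 6.07-fold higher (2.60 ± 0.32), from 9.78 for WT to 52.8. Il6 and Lif thus lay on opposite sides of 0. The WT signal of Lif was close to the background limit of 7.92, and its difference was 0.91 after normexp, within 2-fold. The kinase Jak2 differed by -0.47 ± 0.20, the feedback inhibitor Socs3 by -0.02 ± 0.20, turning to 0.23 in the authors' values, and the transcription factor Stat3 by -0.02. The signalling-chain partners Lifr and Osmr differed by -0.16 and -0.40.

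In the TNF list, 20 of 25 genes were measured, with 0 at least 2-fold apart either way (median -0.27). Tnfrsf1a and Tnfrsf1b, the receptors, differed by 0.23 and -0.53. Tnfaip3, which encodes the NF-κB inhibitor A20 and is itself an NF-κB target, stood just inside the limit, with 1778 for WT and 819 for the array labelled SIRPα-KO (-0.95 ± 0.20, and -1.12 without scaling). Fadd, the brightest of the list, differed by -0.35 ± 0.20. Adam17, the protease that sheds TNF, differed by 0.46. Lta and Ltb, which flank Tnf on chromosome 17, passed the background call for WT only.

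In the list of proteins that control decay and stability of cytokine transcripts, 8 of 10 were measured and 0 were at least 2-fold apart (median 0.29). Zc3h12a, which encodes Regnase-1, an RNase that cuts Il6 transcripts, differed by 0.34, and Arid5a, which stabilises them, by -0.86. Khsrp and Hnrnpd, the brightest of the list, differed by -0.05 ± 0.20 and 0.24 ± 0.20. Khsrp ranged from -0.66 to 0.26 over the settings. Its lowest value came from the mean of its 2 probes, of which the second was not well above background on both arrays. Zfp36, which encodes tristetraprolin, was not well above background on either array.

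**Figure D5:**
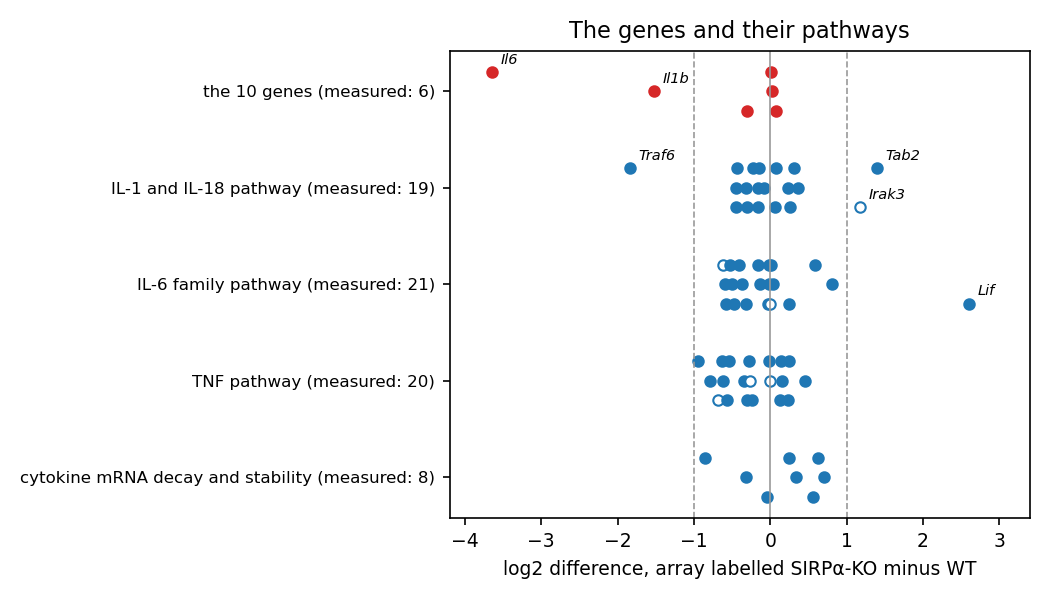
Log2 differences (array labelled SIRPα-KO minus WT) of the 6 measured genes (red) and of the measured genes of 4 pathway lists (blue); open points are lower bounds or stand at 0 because a dim probe gave no bound, and dashed lines mark 2-fold. Il6 stands lower than every pathway gene, Il1b lower than all of them except Traf6, and Lif, Tab2 and Irak3 stand beyond 2-fold higher.

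Other cells of the spleen make IL-1β and IL-6, so their markers are given beside these values. For scale, 5.41% of all measured genes passed the 2-fold limit downwards and 3.12% upwards. Each marker list holds few measured genes, so no change of a cell type is read from its count. Of 10 neutrophil markers with a probe, 8 were measured, 1 was at least 2-fold lower (S100a8, -1.23) and the median was -0.06; Mpo and Ngp were not well above background. The summed scaled signal of that list was 459 for WT and 444 for the array labelled SIRPα-KO, nearly all of it from Elane, and 2.55 and 1.91 without it. Of 8 monocyte markers with a probe, 7 were measured and the median was -0.19. Their sums were 134 and 118, or 12.3 and 11.2 without Vcan. Ccr2 was not well above background. All 7 markers of conventional dendritic cells were measured, with a median of -0.16. Of these, 1 was lower (Flt3, -1.07, and -2.25 at its other probe) and 1 at least 2-fold higher (Clec10a). Their sums were 14.3 and 7.51, or 2.10 and 1.71 without Flt3. Of 8 stromal and endothelial markers, 6 were measured and 1 was lower (Emcn, -1.07). The sums of this list were 18.0 and 15.3, or 8.68 and 7.16 without Kdr. Cdh5 and Pdgfrb were not well above background. All 6 markers of B cells and 7 of T cells lay within 2-fold (medians 0.32 and -0.01). Of 10 immediate-early genes, which respond to tissue handling, 6 were measured, with Fos, Junb, Egr1 and Atf3 not well above background. Of the 6, 4 differences were positive and 2 negative (median 0.12). At least 2-fold higher were 2, Egr2 and Ier3, whose WT signals of 8.89 and 14.8 were close to the background limit of 7.92. The part of other cells or of handling in the values of Il6 and Il1b was not tested.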

How the data were processed

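The deposited scanner tables hold spot intensity on a linear scale from Agilent Feature Extraction 11.0.1.1, array design 26655 and build mm9, per the file headers; the processed signal is already background-subtracted and detrended, per the file headers. The authors' values are on the log2 scale with a median of 4.56 on each array. They did not fall as the scanner signal rose at 100.0% of steps, with slopes of 0.99 and 1.01. The sources used here do not name their normalization. Their differences nearly equalled those after quantile normalization (-3.54 for Il6 and -1.29 for Il1b in both), so these settings are not separate checks. Control spots and outlier spots (190 and 167 of 43020) were left out, probes with a remaining spot on both arrays were kept, repeat spots were averaged as log2, and the 75th percentile of each array was subtracted. No spot was saturated. A probe was well above background when more than 0.5 of its spots were. Accessions were matched to RefSeq symbols of GRCm38.p6 (27206 of 39386 probes). A gene took its brightest probe. For 1673 genes with a dim spot on only 1 array, the dim value was raised to at least that array's lowest detected value, which gives a lower bound written "at least" (or 0 where it passed the bright side). The number of arrays, 1 per genotype, limits the precision.

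The genes, lists and rules were chosen with earlier results of these data known. Named were the 10 genes, pathway genes at least 2-fold apart and the 2 brightest of each pathway list; others were chosen after their values were seen. The value of 1 monocyte marker is not reported here. With 2 arrays no likeness between gene patterns can be measured. The steps were tested on simulated data. Alternatives covered scaling (none, quantile, cyclic loess, percentile of detected probes), background, probe and spot summaries, filter and fold limit. Python 3.11.15, R 4.3.3 and limma 3.58.1 were used.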

Additional observations from a re-analysis of the deposited data

How the results depend on the processing

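Of the 10 genes, 2 were lower and 0 higher under the scaling, background, probe, spot and filter alternatives run and at a 1.5-fold limit. Each gene had 1 probe, so the mean over probes could not change its value. Taking the median of repeat spots could act only on Il1b and Tnf. Leaving out the filter could only add the 4 dim genes. At a 3-fold limit 1 (Il6) was lower, by construction. Over all genes, 856 lower and 494 higher became 2079 and 1810 at 1.5-fold, 369 and 103 at 3-fold, and 1638 and 881 with no filter on dim probes, all by construction; higher genes numbered 304 without scaling and 102 after normexp. Pathway genes, 1 lower and 3 higher, became 9 and 7 at 1.5-fold, 1 higher at 3-fold, 5 lower with no filter, 3 lower without scaling, and 2 lower and 1 higher after normexp. The cause of the normexp values was not tested. The share of higher among genes past the limit was 36.6%, and 47.2% after quantile normalization, 20.8% without scaling and 15.0% after normexp; leaving out the scaling moved the median over genes from -0.08 to -0.25. Normexp ran on median signals, an alternative chosen after seeing the data; on mean signals it was not run, since the tables used here have no such column. No paired analysis was possible because each genotype has 1 array.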
